A study of Mus musculus with 6 samples.

Results

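The broad coding promoters described here are 129 regions of open chromatin, each 2 kb or longer, that lie at the start of a protein-coding gene in small-intestinal organoids from young and aged mice. They were chosen by 2 properties: a deposited peak length of at least 2000 bp, and a peak centre within 1000 bp of the transcription start site (TSS) of a coding gene in the authors' annotation. This gave 129 of the 156733 consensus peaks (0.0823%), or 1.05% of the 12285 peaks that met the same distance limit at a coding gene. Each belongs to a different gene. Their lengths ran from 2002 to 3372 bp, with a median of 2157 bp (quartiles 2064 and 2343), against a median of 696 bp for the 12156 narrower coding promoters and 271 bp for all peaks. A further 171 peaks reached 2 kb without being members, 90 of them because the nearest start was of a noncoding gene and 81 because the coding start was over 1 kb away.

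The libraries were made by ATAC-seq, an assay in which a transposase cuts accessible DNA and attaches sequencing adapters to it. Organoids are self-renewing cultures of epithelium, from stem cells to differentiated offspring, with none of the connective tissue, vessels or immune cells of the gut wall. All cultures were grown without treatment from C57BL/6JRj mice, 3 from young animals (2 to 3 months of age) and 3 from aged animals (20 to 22 months), for 3 to 5 weeks, and they were harvested at passage 4 in replicate 1, passage 3 in replicate 2 and passage 2 in replicate 3 of both ages. The labels name neither the animals nor their sex, so p-values measure the spread between these 6 cultures, which may be partly technical.

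A promoter is the stretch of DNA around a gene's start where RNA polymerase II and its factors assemble. Most promoters are held open over a short stretch, between the nucleosomes on either side of the start. Broad open promoters are a minority. They are known for long CpG islands, for many clustered start sites and binding sites, and for genes whose products regulate others: transcription factors, chromatin proteins, and ligands and receptors of developmental pathways. Within the intestine such genes include Sox9 and Ascl2 of the crypt, where the stem cells reside, and the Frizzled receptors that receive the Wnt signal on which the crypt depends.

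Sequences of 5 broad promoters are shown because their genes stand at the ends of the ranking by age: Ubtf, 1190002N15Rik and Fam20c had the smallest p-values among those higher in aged organoids, Chst2 and Fzd1 were among the 3 with the smallest p-values in the other direction. Each is the 250 bases before a RefSeq start of the gene on GRCm38.p6, read 5′ to 3′ on the gene's strand, and all 5 windows lie inside the peak. The start had to lie inside the peak, and where there were several the one nearest the peak centre was taken. That start can differ from the one in the deposited annotation, as it does most clearly for Ubtf, Chst2 and Fzd1. The window of Slc35d3, the next gene below 0 with a RefSeq start inside its peak, reaches beyond that peak and is not printed. Coordinates are chr11:102317872-102318121 (minus strand) for Ubtf, chr9:94538082-94538331 (minus) for 1190002N15Rik, chr5:138754831-138755080 (plus) for Fam20c, chr9:95407271-95407520 (minus) for Chst2 and chr5:4758217-4758466 (minus) for Fzd1. Capitals mark 3 short motifs on either strand, with no overlap between the marked runs: the GC box GGGCGG or CCGCCC, the CCAAT box CCAAT or ATTGG, and the ETS core CCGGAAG or CTTCCGG.
Ubtf: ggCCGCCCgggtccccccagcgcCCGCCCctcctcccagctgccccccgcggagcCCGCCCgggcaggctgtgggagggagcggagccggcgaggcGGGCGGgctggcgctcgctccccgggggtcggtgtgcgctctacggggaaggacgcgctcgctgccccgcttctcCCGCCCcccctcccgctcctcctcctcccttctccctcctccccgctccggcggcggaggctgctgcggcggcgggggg
1190002N15Rik: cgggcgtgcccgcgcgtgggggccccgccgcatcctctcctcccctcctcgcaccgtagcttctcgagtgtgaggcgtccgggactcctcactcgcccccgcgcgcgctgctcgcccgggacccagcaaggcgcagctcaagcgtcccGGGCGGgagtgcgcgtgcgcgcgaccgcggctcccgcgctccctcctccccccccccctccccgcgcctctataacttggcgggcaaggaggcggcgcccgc
Fam20c: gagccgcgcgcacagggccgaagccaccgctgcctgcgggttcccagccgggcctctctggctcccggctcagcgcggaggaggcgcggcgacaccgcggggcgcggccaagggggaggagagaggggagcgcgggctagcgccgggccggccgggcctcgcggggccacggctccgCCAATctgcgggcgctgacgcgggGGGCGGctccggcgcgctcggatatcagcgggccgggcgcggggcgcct
Chst2: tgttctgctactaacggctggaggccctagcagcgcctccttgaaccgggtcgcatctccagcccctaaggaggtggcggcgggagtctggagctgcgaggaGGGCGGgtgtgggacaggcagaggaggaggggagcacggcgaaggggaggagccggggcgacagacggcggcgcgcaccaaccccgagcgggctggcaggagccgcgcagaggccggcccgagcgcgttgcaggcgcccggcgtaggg
Fzd1: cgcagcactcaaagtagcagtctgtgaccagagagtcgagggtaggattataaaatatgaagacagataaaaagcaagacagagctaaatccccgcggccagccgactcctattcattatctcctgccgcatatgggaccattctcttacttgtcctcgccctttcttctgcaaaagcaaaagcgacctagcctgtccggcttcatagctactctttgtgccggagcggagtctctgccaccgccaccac

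The window of Ubtf held 5 GC boxes, those of 1190002N15Rik, Fam20c and Chst2 held 1 each, and Fam20c also held 1 CCAAT box. No searched motif was present in the Fzd1 window. Base composition differed as widely: 82.0% of the Ubtf window was G or C, with 32 CpG dinucleotides, and 81.2% of the Fam20c window, with 41. The 1190002N15Rik window was 77.6% G or C with 38 CpG, and the Chst2 window 72.8% with 27. At Fzd1 the share was 51.2%, with 12 CpG, against medians of 52.4% and 6 CpG over 32851 RefSeq windows of this length. A GC box was present in 32.7% of those windows, a CCAAT box in 33.8% and an ETS core in 6.91%. Such a match describes letters and shows no binding. A RefSeq window with its start inside the peak was found for 96 of the 129 members (74.4%) and for 54.6% of the narrower promoters. That requirement depends on the peak itself. The windows were too few for a comparison of composition between the sets, which is therefore void.

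Accessibility at the broad promoters was high in total and moderate per length. The median was 39.5 CPM (counts scaled to a common library size with TMM factors) per peak, from 6.55 at Ntn1 to 164 at Jun, against 14.96 CPM at narrower coding promoters. Per kilobase of peak the median was 17.6 CPM in broad and 19.7 CPM in narrower promoters, and 14.7 CPM in the other peaks of 2 kb or more. The densest members were Clcn2, a chloride channel of epithelia, with 61.7 CPM per kb, Jun, a subunit of the AP-1 transcription factor, with 56.0, and Akt1s1, an inhibitory subunit of the mTORC1 kinase, with 51.96. Gm16253 and Leng9 followed with 50.1 and 47.1 CPM per kb. At the other end, the peak of Ntn1, which encodes the guidance cue netrin-1, had 2.88 CPM per kb. Every member passed the filter on low counts, and the smallest count in any library was 45, at Kcnj4 in young replicate 1.

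At the length limit the members differed little from their neighbours. The shortest members were Plcl2 and Akt1s1 (2002 bp) and Noc2l (2003 bp), with 19.4, 104 and 36.1 CPM. The longest promoters left out were Tmem45b (1999 bp), Slc39a8 (1995 bp) and Fut8 (1994 bp), with 27.6, 44.7 and 52.6 CPM. Their log2 fold changes, aged over young, were 0.18, 0.01 and 0.13 inside the limit and 0.07, 0.08 and 0.06 outside it.

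No broad promoter differed between aged and young organoids at an adjusted p under 0.05. Most members nevertheless had slightly higher values in aged organoids: the log2 fold change was above 0 in 107 of 129 (82.9%), with a median of 0.08 (quartiles 0.02 and 0.16). The range was narrow, from -0.37 at Ntn1 to 0.30 at Egln1. Over all 132055 peaks tested the median was -0.01, with 48.0% above 0, and over 11523 narrower coding promoters it was 0.03, with 59.2% above 0.

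edgeR's quasi-likelihood test over all peaks called 0 of the 129 members (Benjamini-Hochberg adjusted p of at least 0.168), against 1.13% of all peaks tested, 0.619% higher and 0.51% lower in aged. At an unadjusted p under 0.05 the same test gave 24 members (18.6%), 22 higher and 2 lower, against 9.71% of all peaks (4.9% higher and 4.81% lower). Of narrower coding promoters it gave 9.98% (6.33% higher and 3.65% lower). DESeq2 also called 0 members (0.817% of all peaks) and gave 15 at an unadjusted p under 0.05, all higher, against 5.33% of all peaks (2.81% higher). The standard error of a member's log2 fold change had a median of 0.089. The 95% interval lay within a 1.5-fold change in either direction for 127 of 129 members, all but Chst2 and Ntn1.

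**Figure D1:**
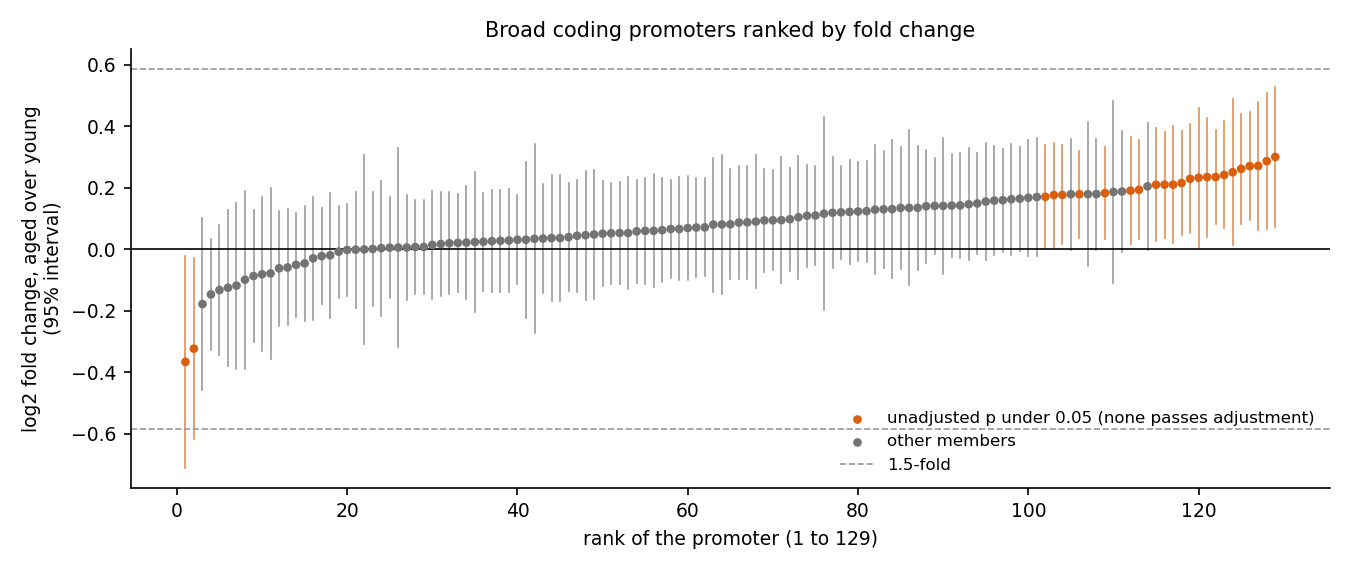
The 129 broad coding promoters ranked by log2 fold change (vertical axis, aged over young) with 95% intervals from edgeR's fit; orange marks an unadjusted p under 0.05 and the dashed lines mark a 1.5-fold change. Of the 24 orange points 22 lie above 0, and the points run from -0.37 to 0.30.

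The number of calls changed with the block and with 1 library. With the replicate number as a block, which compares the young and the aged culture of the same passage, edgeR called 7 members higher (5.43%, against 1.46% of all peaks): Fam20c, Egln1, Ubtf, Bend3, Gnaq, 1190002N15Rik and Skil, with log2 fold changes of 0.24 to 0.32 and adjusted p of 0.0256 to 0.0403. Without young replicate 2 it called 10 members higher (7.75%, against 0.783% of all peaks). Those were the same 7 and also Chd7, Cdkn2c and Mier3, with log2 fold changes of 0.27 to 0.49 and adjusted p of 0.0038 to 0.0468. Leaving out any other single library gave 0 calls. Neither fit called a member lower, against 1.21% and 0.621% of all peaks. Of narrower coding promoters these fits called 1.7% and 1.58% higher and 1.54% and 0.674% lower.

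The library values show where the age groups met. Broad promoters took 0.523, 0.571 and 0.511% of all counts in peaks in young replicates 1 to 3 and 0.557, 0.568 and 0.575% in the aged ones. Young replicate 2 lay among the aged libraries, and the other young libraries lay below all of them. The means were 0.535% ± 0.032 (SD, n = 3) and 0.567% ± 0.0092 (SD, n = 3), and an exact permutation test, two-sided, gave p = 0.3, where the smallest p possible with 3 per group is 0.1. Within the same-passage pairs the share was higher in aged in 2 of 3 (exact sign-flip p = 0.5, with 0.25 the smallest possible).

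Set against the narrower coding promoters of the same library, which removes the scaling, the picture was alike. The log2 ratio of counts at broad to narrower promoters was -5.62, -5.52 and -5.61 in the young libraries, against -5.55, -5.54 and -5.51 in the aged ones. The aged mean was higher by 0.05 (exact permutation p = 0.3), and young replicate 2 again lay within the aged values. Against 2944 narrower promoters with like counts (25.5 to 52.8 CPM, the members' own quartiles) the difference was 0.04 (p = 0.3, exact permutation test). Against the other 171 peaks of 2 kb or more the log2 ratio was -0.26, -0.23 and -0.28 in the young libraries, against -0.23, -0.20 and -0.23 in the aged ones. That difference was 0.04 (exact permutation p = 0.3), higher in aged in 3 of 3 pairs (exact sign-flip p = 0.25). All coding promoters together took 26.13% ± 0.64 of counts in young and 26.75% ± 0.19 in aged libraries (SD, n = 3; p = 0.3, exact permutation test). Over these 5 comparisons the adjusted p was 0.3 for each.

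**Figure D2:**
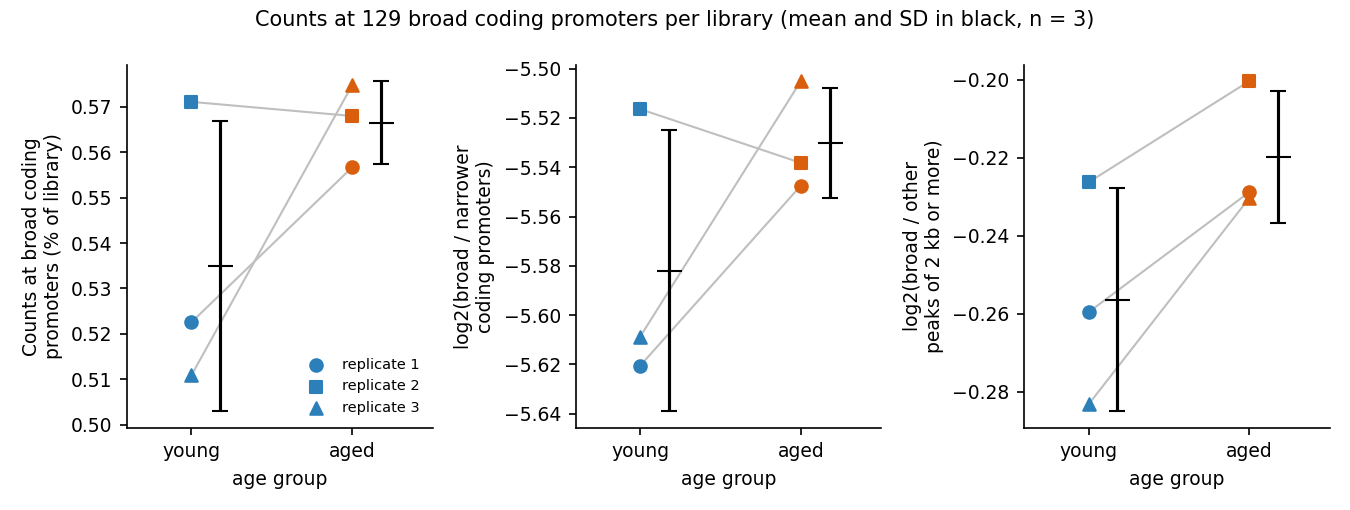
Counts at the 129 broad promoters in each of the 6 libraries, as a percentage of all counts in peaks (left), as the log2 ratio to narrower coding promoters (middle) and as the log2 ratio to other peaks of 2 kb or more (right); symbols are replicates, grey lines join cultures of the same passage, and black marks are the mean and SD of 3 libraries. In the left and middle panels young replicate 2, with 0.571% and -5.52, sits among the aged libraries.

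Scaling bore on this overlap. As sums of CPM with TMM-scaled library sizes, the members reached 5338, 5595 and 5176 in the young libraries, against 5660, 5692 and 5823 in the aged ones, so the groups did not overlap on that scale, while they did as shares of library totals. Young replicate 2 had the largest TMM factor, 1.03. It also differed in depth from replicate 1: the young libraries held 7278161, 25901670 and 19208483 counts and the aged libraries 22363682, 21687816 and 26093521. Peaks at a count of 0 numbered 5283 in young replicate 1 and 123 in young replicate 2. The part of depth and passage in the members' values was not tested beyond the alternatives given.

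By pair, the median log2 difference of the members was 0.10 at passage 4, 0.01 at passage 3 and 0.18 at passage 2, with 92, 73 and 112 of 129 members higher in the aged culture. Over all tested peaks the same medians were 0.01, -0.00 and -0.00, with 50.6%, 49.9% and 49.4% higher. At narrower coding promoters they were 0.03, 0.01 and 0.06, with 54.7%, 53.5% and 63.3% higher. At passage 3 the members' median of 0.0137 was not above the 0.0145 of narrower promoters. Each member's lowest value fell in young replicate 3 for 62 members and in young replicate 1 for 38, whereas 8 had it in young replicate 2. Of all tested peaks, 18.6%, 24.0% and 14.8% had their lowest value in these 3 libraries. The highest value fell in aged replicate 3 for 34, in aged replicate 2 for 29 and in young replicate 2 for 28. For all tested peaks these shares were 14.1%, 15.4% and 15.6%. All 3 pairs were higher in aged at 52 members (40.3%, against 17.0% of all peaks) and none at 3, Chst2, Fzd1 and Fzd8 (2.33%, against 16.7%). At narrower coding promoters these shares were 23.2% and 11.8%. The aged and young values did not overlap at 31 members, 30 higher (23.3%, against 7.66%) and 1 lower, Fzd1 (0.775%, against 7.09%). Narrower coding promoters gave 10.9% higher and 5.22% lower.

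Longer coding promoters had higher medians with all 6 libraries. In classes of 250 bp, the median log2 fold change was -0.01 from 0 bp and from 250 bp, 0.02 from 500 bp, 0.03 from 750 bp and 0.04 from 1000 bp. In the next 3 classes, which end at 2 kb, medians ran from 0.06 to 0.08, and from 2000 bp, in the members, the median was 0.08. Without young replicate 2 the median of the shortest class turned to 0.053, above the next 3 classes (0.022, 0.023 and 0.048), and medians then went from 0.07 from 1000 bp to 0.14 in the members. The share of promoters above 0 went from 48.9% in the shortest class to 82.9% in the broad promoters. Counts went with length as well, from a median of 0.823 CPM in the shortest class to 39.5 CPM. The part of counts in this order was not tested, but narrower promoters with the members' own counts had a median of 0.05 and 69.9% above 0, and the other peaks of 2 kb or more had 0.07 and 73.1%. Among the members, the 43 with the fewest counts had a median of 0.05 (31 above 0), the middle 43 had 0.09 (37 above 0) and the 43 with the most had 0.09 (39 above 0). Of the 777 coding promoters of 1500 bp or more, members included, 3 passed the test, and all 3 were shorter than 2 kb: Fam20a, whose product activates the Fam20c kinase, and Fam101b rose (log2 fold changes of 0.49 and 0.54, adjusted p = 0.00037 and 0.0257 by edgeR), and Phyhipl fell by 1.98 (adjusted p = 1.78e-10). These 3 were picked out after their values were seen.

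**Figure D3:**
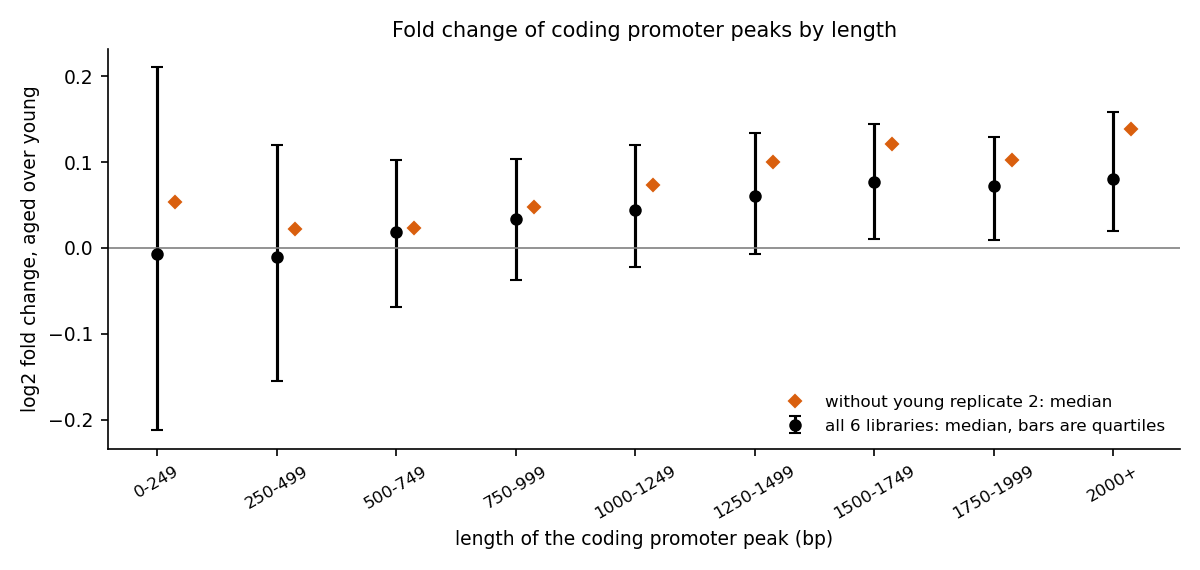
Median log2 fold change (vertical axis, aged over young) of coding promoter peaks in 9 classes of peak length (horizontal axis, bp); bars are quartiles over the peaks of a class, and orange diamonds are medians without young replicate 2. The medians go from -0.01 in the shortest class to 0.08 in the class of 2000 bp or more, where the median without young replicate 2 is 0.14.

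The genes of the members were grouped by the known role of their product, a grouping made after their values had been seen. No share was computed for the narrower promoters, so the groups are counts and no enrichment. Of the members, 20 encode transcription factors, 15 chromatin and other nuclear regulators, 11 intracellular signalling proteins and 5 Wnt receptors or proteins of Wnt secretion. Another 9 encode other ligands, receptors and guidance molecules. Proteins of cell cycle, apoptosis and ubiquitin, of glycosylation and the secretory pathway, of RNA binding and of the cytoskeleton numbered 9, 9, 10 and 10. Channels and transporters made up 5, and 26 fitted no group. The test called 0 members in each group, and medians ran from 0.03 to 0.16.

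**Figure D4:**
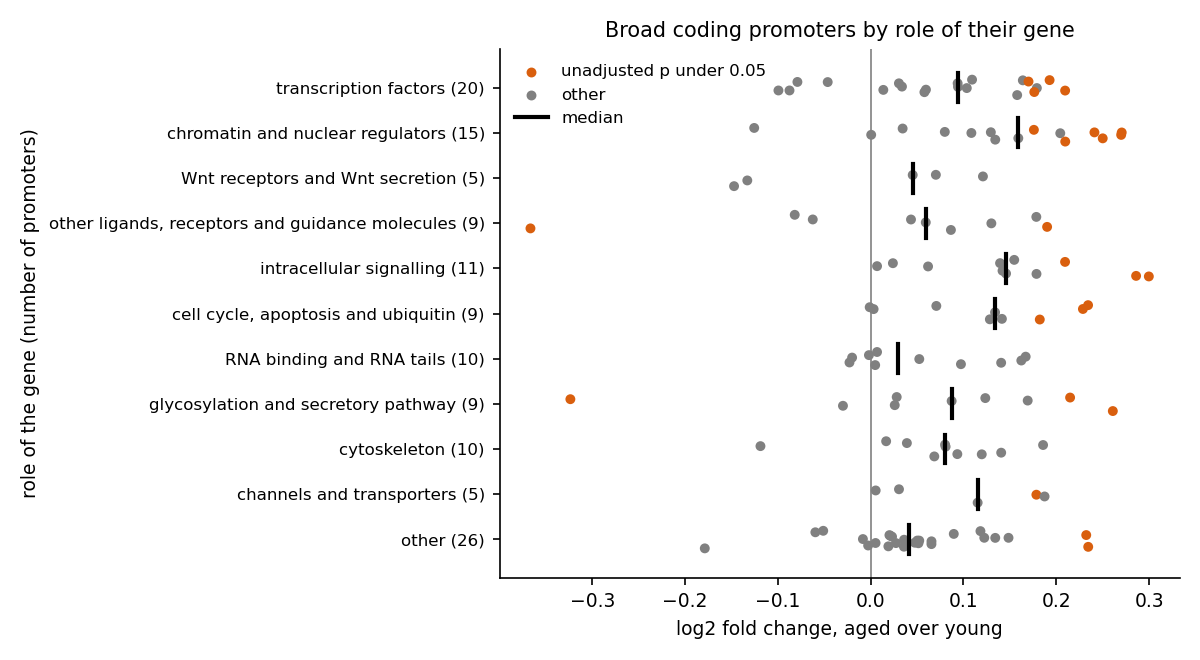
Log2 fold change (horizontal axis, aged over young) of each of the 129 broad promoters, in rows by the role of the gene, with the number of promoters in brackets; orange marks an unadjusted p under 0.05 and black bars are medians. The row medians run from 0.03 for RNA binding to 0.16 for chromatin and nuclear regulators, and no promoter passes adjustment.

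Chromatin and nuclear regulators had the highest median, 0.16, with 14 of 15 above 0. They had 6 at an unadjusted p under 0.05 (against 18.6% of all members and 9.71% of all peaks). Their summed CPM was 487, 563 and 481 in the young libraries, against 564, 583 and 577 in the aged ones, so that young replicate 2 lay just below the lowest aged library. Without young replicate 2 their median was 0.25, and 5 of the 10 members called higher in that fit belonged to this group, Ubtf, Skil, Bend3, Chd7 and Mier3. The fit without young replicate 3 called 0 of the 129. Ubtf encodes the factor that opens ribosomal RNA genes for RNA polymerase I, and its peak, at 3147 bp the longest but one, covers chr11:102316593-102319738. It had 40.002, 49.965 and 43.9 CPM in young replicates 1 to 3 and 55.7, 50.9 and 56.4 CPM in the aged ones. The groups did not overlap, but young replicate 2 and aged replicate 2 were close, and the log2 fold change was 0.27 ± 0.087 (SE; adjusted p = 0.168 by edgeR, 0.0279 with the block). The GC-rich window printed above lies within this peak.

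Skil, whose product SnoN holds back SMAD proteins of the TGF-beta pathway, had 46.3, 55.9 and 45.6 CPM in young and 57.8, 60.9 and 57.1 CPM in aged libraries. All aged values were above all young values, young replicate 2 being the nearest, with a log2 fold change of 0.24 ± 0.086 (SE; adjusted p = 0.25 by edgeR, 0.0403 with the block). Bend3, a repressor found at heterochromatin, had 32.3, 38.3 and 26.7 CPM in young and 38.7, 41.3 and 37.9 CPM in aged libraries, a log2 fold change of 0.27 (adjusted p = 0.302 by edgeR, 0.0283 with the block), which was 0.44 without young replicate 2 and 0.13 without young replicate 3. Here the groups overlapped, since young replicate 2 exceeded aged replicate 3. Of the chromatin remodellers Chd7 and Chd4, Chd7 was at 0.25, with 21.8, 29.7 and 19.7 CPM in young and 26.4, 30.7 and 28.9 CPM in aged libraries, and Chd4 at 0.08. Without young replicate 2 Chd7 was at 0.48 (adjusted p = 0.0086 by edgeR), and without young replicate 3 at 0.11 (adjusted p = 0.876). Rybp, of Polycomb repressive complex 1, and Anp32b, a histone chaperone, were at 0.21 and 0.18 with an unadjusted p under 0.05. Phf19, an accessory subunit of Polycomb repressive complex 2, was the member of this group below 0, at -0.13 (adjusted p = 0.826 by edgeR).

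Transcription factors had a median of 0.09, with 16 of 20 above 0. They had 4 at an unadjusted p under 0.05, near the share of 18.6% in all members (9.71% of all peaks). Hivep2, a large zinc-finger protein that binds NF-kB sites, had the longest peak of all, 3372 bp at chr10:13964545-13967915. Its values were 62.7, 67.4 and 61.4 CPM in young and 73.5, 68.0 and 77.7 CPM in aged libraries. They did not overlap, again with replicate 2 of both ages side by side, and the log2 fold change was 0.19 ± 0.079 (SE; adjusted p = 0.37 by edgeR). The others with an unadjusted p under 0.05 were the zinc-finger factors Zbtb14 (0.21) and Zbtb7a (0.18) and the glucocorticoid receptor gene Nr3c1 (0.17).

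The list of epithelial identity factors held 4 members, with a median of 0.08: Sox9, which marks crypt progenitors, at -0.05, Foxa2 and Gata5 of the endoderm at 0.06 and 0.09, and Ovol1, an epithelial zinc-finger factor, at 0.09. Ascl2, the Wnt-driven factor of the stem cells and a member from the Wnt and crypt list, was at 0.01. Ascl2 had 52.4, 48.5 and 46.7 CPM in young and 44.1, 51.4 and 52.7 CPM in aged libraries, with the lowest and the highest value both in the aged group. Its sign turned when aged replicate 2, aged replicate 3 or young replicate 3 was left out. Jun had the most counts of all members, with 175, 148 and 164 CPM in young and 171, 162 and 162 CPM in aged libraries. The groups overlapped, and the log2 fold change of 0.03 turned to -0.03 without young replicate 2. Foxc1 and Foxl2, forkhead factors of mesenchymal and gonadal development, were at -0.09 and -0.10, and Foxl2 turned to 0.07 without young replicate 2.

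Intracellular signalling genes lay above 0 in 11 of 11 cases, with a median of 0.15. They had 3 at an unadjusted p under 0.05 (against 18.6% of all members and 9.71% of all peaks). Their summed CPM was 419, 462 and 431 in the young libraries, against 472, 472 and 483 in the aged ones. These did not overlap, as was the case for the sums of 7 of the 11 groups and of all members on this scale. Egln1, the prolyl hydroxylase that marks hypoxia-inducible factors for breakdown when oxygen is present, had the largest increase of all members. Its values were 22.9, 26.9 and 18.6 CPM in young and 25.7, 28.8 and 29.9 CPM in aged libraries. Aged replicate 1 lay below young replicate 2, so the groups overlapped, and the log2 fold change was 0.30 ± 0.11 (SE; adjusted p = 0.291 by edgeR, 0.027 with the block). It was 0.48 without young replicate 2 (adjusted p = 0.0136 by edgeR) and 0.15 without young replicate 3 (adjusted p = 0.77).

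Gnaq, the alpha subunit of the G protein that activates phospholipase C, had 23.4, 30.6 and 20.9 CPM in young and 30.2, 31.3 and 30.9 CPM in aged libraries. The aged values lay close together, and young replicate 2 fell between them. Its log2 fold change of 0.29 ± 0.11 (SE) had an adjusted p of 0.31 by edgeR and 0.0316 with the block. It was 0.49 without young replicate 2 (adjusted p = 0.0038 by edgeR) and 0.15 without young replicate 3 (adjusted p = 0.774). Tbk1, a kinase of innate immune signalling, was at 0.21, the adaptor Gab1 and the kinase Dyrk1a at 0.14 each, Akt2 at 0.06, the phosphatase gene Dusp4 at 0.02 and Akt1s1 at 0.01.

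Genes of the cell cycle, apoptosis and ubiquitin had a median of 0.13, with 8 of 9 above 0. Cdkn2c encodes p18INK4C, an inhibitor of the cyclin-dependent kinases that start the cell cycle. Its promoter had 35.9, 40.8 and 34.4 CPM in young and 43.0, 44.7 and 43.2 CPM in aged libraries. All aged values were above all young values, and the log2 fold change was 0.23 ± 0.087 (SE; adjusted p = 0.312 by edgeR, 0.0864 with the block and 0.0466 without young replicate 2). Usp24, a deubiquitinase, was at 0.23, Tob1, an antiproliferative protein, at 0.18, and the p53 target Bbc3, which encodes the pro-apoptotic protein PUMA, at 0.13.

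Members for glycosylation and the secretory pathway held both directions, with a median of 0.09 and 7 of 9 above 0. Fam20c, the kinase of the Golgi that phosphorylates secreted proteins, had 52.5, 52.7 and 41.3 CPM in young and 56.4, 58.6 and 59.8 CPM in aged libraries. The groups did not overlap, and young replicate 3 lay well below the other young libraries. The log2 fold change was 0.26 ± 0.088 (SE; adjusted p = 0.209 by edgeR, 0.0256 with the block), and 0.15 without young replicate 3 (adjusted p = 0.703). Galnt4, an enzyme of mucin-type O-glycosylation, had 37.9, 39.0 and 36.6 CPM in young and 45.2, 42.4 and 44.2 CPM in aged libraries, a log2 fold change of 0.21 without overlap (adjusted p = 0.331 by edgeR).

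Chst2, a sulfotransferase that acts on N-acetylglucosamine, had the smallest p-value of the members below 0. It had 13.2, 16.0 and 10.9 CPM in young and 9.27, 12.9 and 10.2 CPM in aged libraries. The aged culture was lower in each of the 3 pairs, yet the groups overlapped, and the log2 fold change was -0.32 ± 0.14 (SE; adjusted p = 0.443 by edgeR). Without young replicate 2 it was -0.13.

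Wnt receptors and Wnt secretion had a median of 0.05, with 3 of 5 above 0 and 0 at an unadjusted p under 0.05. The Frizzled genes, which encode the receptors for Wnt ligands in a single coding exon, differed in sign. Fzd1 had 37.6, 40.5 and 35.1 CPM in young and 34.5, 34.5 and 33.3 CPM in aged libraries. It was the 1 member whose aged values were all below its young values, with a log2 fold change of -0.15 ± 0.088 (SE; adjusted p = 0.642 by edgeR) and -0.08 without young replicate 2.

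Fzd8 had 49.3, 41.9 and 48.0 CPM in young and 46.5, 33.4 and 46.2 CPM in aged libraries. Both ages had their lowest value in replicate 2, and the log2 fold change of -0.13 turned to 0.01 without aged replicate 2. Fzd7, the Frizzled gene known for its use in intestinal stem cells, was at 0.07, Wls, which carries Wnt proteins to the cell surface, at 0.05, and Tspan12, a tetraspanin that works with a Frizzled receptor, at 0.12 with no overlap between the ages.

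Of the other ligands, receptors and guidance molecules, 6 of 9 lay above 0, with a median of 0.06. Ntn1 had the lowest fold change and the fewest counts of all members: 6.46, 9.61 and 5.80 CPM in young and 5.36, 6.15 and 5.94 CPM in aged libraries. Young replicate 2 stood apart above the other 5 libraries, the aged culture was higher in 1 of 3 pairs, and the log2 fold change of -0.37 ± 0.17 (SE; adjusted p = 0.469 by edgeR) was -0.05 without that library. Crim1, which binds bone morphogenetic proteins, was at 0.19, the growth factor gene Fgf18 at 0.18, the activin receptor gene Acvr2b at 0.09, the hedgehog co-receptor gene Gas1 at -0.08 (0.08 without young replicate 2) and the semaphorin receptor gene Nrp1 at -0.06.

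**Figure D5:**
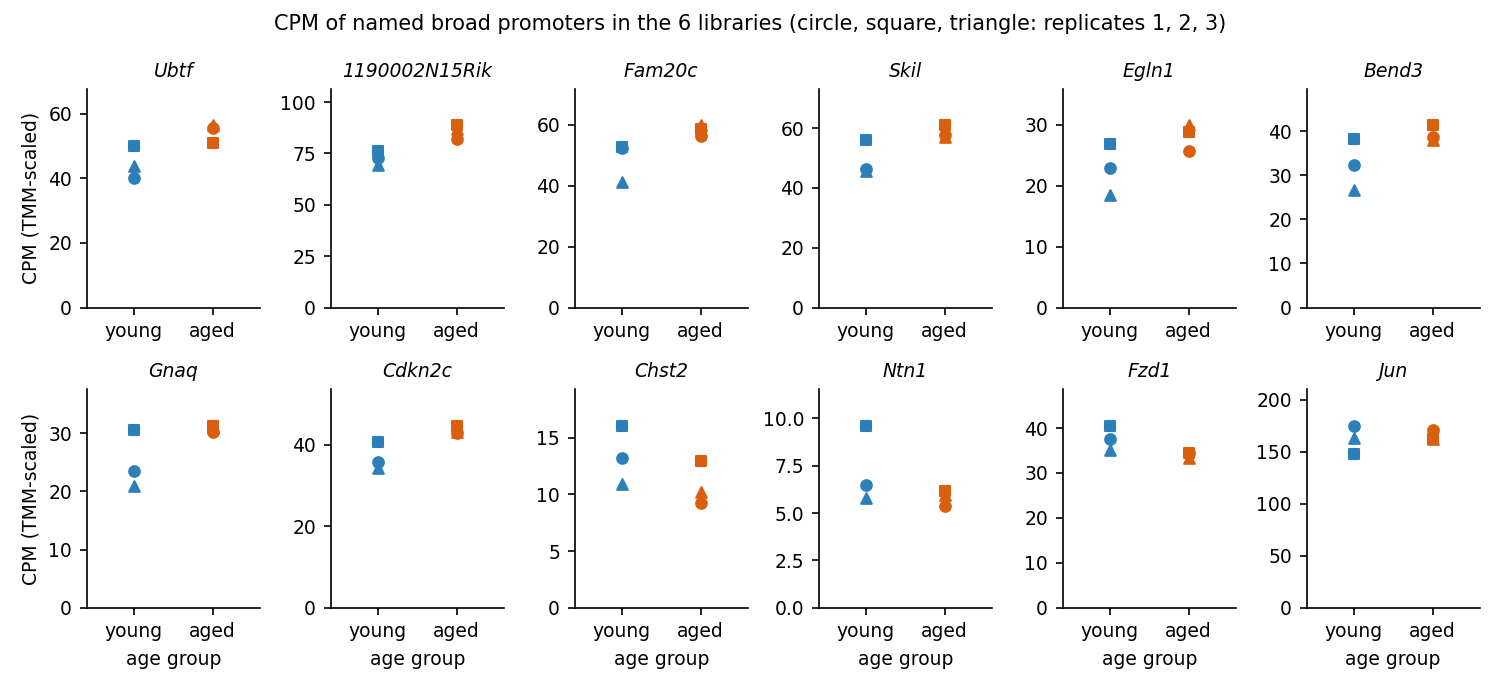
CPM (vertical axes, from 0) of 12 broad promoters in the 3 young and the 3 aged libraries, 1 panel per gene; circles, squares and triangles are replicates 1, 2 and 3. In Egln1, Bend3 and Gnaq the young square (replicate 2) overlaps the aged values, in Fzd1 all aged points lie below the young ones, and in Ntn1 the young square at 9.61 CPM stands apart.

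In the remaining groups, RNA-binding genes had a median of 0.03 (7 of 10 above 0), with Hnrnpa2b1, an RNA-binding protein of splicing, at -0.02 and Fam46a, the third longest peak (3081 bp), at 0.00. The cytoskeletal genes had a median of 0.08 (9 of 10 above 0), with the kinesin gene Kif26b at -0.12. Channels and transporters were above 0 in 5 of 5, with a median of 0.12. Clcn2 had 122, 121 and 120 CPM in young and 134, 132 and 144 CPM in aged libraries, the young values being nearly equal and all aged ones higher, with a log2 fold change of 0.18 ± 0.070 (SE; adjusted p = 0.331 by edgeR). In the ungrouped set, 1190002N15Rik, a gene known here by its clone name, had 72.8, 76.3 and 69.6 CPM in young and 82.1, 88.7 and 86.7 CPM in aged libraries. These did not overlap either, and the log2 fold change was 0.23 ± 0.075 (SE; adjusted p = 0.169 by edgeR, 0.0348 with the block).

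Of 493 genes on 20 lists of pathways, cell functions and markers, 19 had a broad promoter, and 0 of these 19 were called. At all their promoters of any length, each gene taken by its peak with the most counts, the lists held few calls. For Wnt and crypt genes, 21 of 28 had a tested coding promoter, with 0 higher, 0 lower and a median log2 fold change of 0.08. For epithelial identity factors the test found 0 higher and 0 lower of 26 (median 0.02), for chromatin modifiers 0 and 0 of 20 (0.12), and for p53, cell cycle brakes and senescence 0 and 0 of 19 (0.10). Hspa1a, a heat-shock chaperone, was the 1 called gene of 19 on the heat shock and unfolded protein list, lower by a log2 fold change of -0.61 (adjusted p = 0.0028 by edgeR) at a peak of 977 bp, while its list partner with a broad promoter, Hsp90ab1, was at 0.07. On the list of developmental factors 0 of 34 were higher and 7 lower (against 0.51% of all peaks and 0.911% of narrower coding promoters lower), with a median of -0.08: Hoxc10, Alx1, Zic1, Hoxd1, Hoxd11, Hoxd9 and Meis1, all narrower than 1 kb and at 0.82 to 4.73 CPM. Its 2 broad members, Foxc1 and Foxl2, were not called.

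Every broad peak spanned the annotated start of its gene, against 71.4% of the narrower promoters, as follows from the limits on length and distance. The peaks reached a median of 1050.5 bp upstream and 1235.5 bp downstream of the start, and the centre lay downstream in 57.4% of members and 54.3% of narrower promoters. By the deposited class of the peak centre, 86 members were promoter-TSS (median log2 fold change 0.09), 23 exonic (0.03) and 20 intronic (0.08). In 10 of 128 members with a RefSeq gene span (7.81%, against 1.02% of narrower promoters) the peak covered at least 50% of the whole gene: Cebpb, Ascl2, Foxq1, Foxl2, Insm2, Pcbp1, Gas1, Foxc1, Leng9 and Jun. Most of these are compact genes of transcription factors, and their log2 fold changes ran from -0.10 at Foxl2 to 0.17 at Pcbp1. The 22 members with a gene span under 5 kb had a median of 0.05 (15 above 0) and none at an unadjusted p under 0.05, while the 106 with longer genes had 0.09 (92 above 0) and all 24. The difference between those classes was not tested. Peaks of 24 members (18.6%, against 11.3% of narrower promoters) overlapped 2 or more coding genes, so counts there cannot be assigned to one of them. A longer peak covers more of a gene and meets more genes, so both contrasts follow at least in part from the length limit. The share of short genes was similar: 17.2% of members and 15.3% of narrower promoters had a span under 5 kb. Median gene spans were 22.8 and 20.1 kb, but the upper quartile was 84.9 kb in members and 48.7 kb in narrower promoters.

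Around the members, within 10 kb of the peak edges, lay 371 smaller peaks with a median length of 289 bp. Of these, 332 were tested, with a median log2 fold change of 0.03, and edgeR called 5 higher and 0 lower (1.51%, against 1.13% of all peaks). They are named here after their values were seen. An exonic peak of Galnt4, 584 bp from the broad promoter, rose from 0.561, 0.681 and 0.158 CPM in young to 2.32, 2.91 and 2.60 CPM in aged libraries (log2 fold change 2.45, adjusted p = 9.03e-06 by edgeR). All aged values exceeded all young values, at levels far under those of the promoter. Raw counts at this peak were 4, 18 and 3 for young replicates 1 to 3, against 51, 63 and 67 for the aged replicates. In intron 2 of Tspan12 a peak 6.68 kb from the promoter went from 0.140, 0.378 and 0.0527 to 1.77, 1.80 and 1.79 CPM. The log2 fold change was 2.95 (adjusted p = 1.42e-05 by edgeR), again without overlap. Raw counts there were 1, 10 and 1 for young replicates 1 to 3, against 39, 39 and 46 for the aged replicates. At both peaks the aged counts were enough to pass the filter. The size of each fold change rests on few young reads (SE 0.32 for Galnt4, 0.40 for Tspan12).

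The other 3 lost their call in at least 1 fit that left out 1 library, although their aged and young values did not overlap. Another peak of that intron had a log2 fold change of 0.72 (adjusted p = 0.0065 by edgeR, up to 0.142 when 1 library was left out). A peak in intron 2 of Tbk1 was at 1.31 (adjusted p = 0.0040, up to 0.0609), and a peak of Gm11379, 7.784 kb from the Foxc1 promoter, at 0.98 (adjusted p = 0.0219, up to 0.11, by the same test). At the broad promoters next to these 5 peaks, the log2 fold changes were 0.21 for Galnt4, 0.12 for Tspan12, 0.21 for Tbk1 and -0.09 for Foxc1, and 0 of the 4 was called.

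The label of the cultures as epithelium was checked at promoters of marker genes, of which 0 is a member. Epithelial markers had a coding promoter peak in 9 of 13 genes, with summed levels of 400 to 407 CPM in young and 423 to 445 CPM in aged libraries, which did not overlap. Immune markers had one in 4 of 15 genes (11.6 to 13.3 CPM in young, 11.001 to 12.2 in aged), stromal markers in 8 of 14 (27.1 to 34.8 and 30.01 to 36.6 CPM) and endothelial and glial markers in 5 of 14 (16.8 to 22.8 and 19.1 to 20.4 CPM). Ptprc, Cd3e and Pecam1 had no coding promoter peak, and neither had the epithelial genes Vil1, Krt19, Elf3 and Tjp1. No level is given for them. Cd3g, Cd68, Kdr and Col1a1 from the non-epithelial lists did have one, so absence of a peak does not separate the lists. In bulk libraries a shift in the mix of epithelial cells and a change of accessibility within each cell cannot be told apart, and the part of the epithelial markers' difference in the members' values was not tested.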

How the data were processed

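Accessibility was measured by ATAC-seq in 6 organoid cultures. The submitters' processing notes list BWA 0.7.17-r1188, MACS2 2.2.7.1 and featureCounts 2.0.1, among others, and build GRCm38. Per the file headers, the deposited table holds raw counts per consensus peak from featureCounts. The sources used here do not say how peaks were merged, reads shifted for the transposase or duplicates treated. The deposited annotation supplied the gene, its type and the distance to the TSS. The length of a consensus peak may depend on signal of either age. The deposited length exceeds the span of the printed coordinates by 1 bp.

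Counts over all 156733 peaks were fitted in edgeR 4.0.16 (quasi-likelihood F test, robust, TMM factors, filterByExpr with a minimum count of 10), and Benjamini-Hochberg adjustment ran over the 132055 peaks tested, at a threshold of 0.05. CPM values were computed from TMM-scaled library sizes. Values per library were compared by exact permutation and sign-flip tests, two-sided. Pair differences are log2 of CPM plus 0.5. Intervals of 95% come from the fit and its spread between libraries. edgeR moderates the spread of a peak towards that of other peaks, so its p-values, standard errors and intervals rest partly on other peaks. The script was tested on simulated data.

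The members, the gene lists and the tests were chosen with earlier results of these data known, and the roles after the values were seen. Members named by rule were, per direction, the 10 with the smallest p (none called), the 5 longest, the 5 densest, up to 2 per list and the 3 on either side of the length limit. Further members, among them Tbk1, Rybp, Usp24, Sox9 and Wls, were named outside these rules after their values were seen. Libraries with the same number share a culture code and a passage in their titles and were treated as pairs, but the descriptions give 1 code for all 6, so the pairing is uncertain. Within pairs, deviations from the mean of each age correlated by 0.091, 0.167 and 0.181 over all tested peaks and by -0.075, 0.376 and 0.296 over the members, where young replicate 3 with aged replicate 1 (0.48) and young replicate 1 with aged replicate 2 (0.246) were also positive. Alternatives were DESeq2 1.42.0, RLE factors, library totals, no filter, thinning to 7278161 counts, the block, each library left out, and other limits of length and distance. Members whose gene was matched to a RefSeq span numbered 128. Replicates of an age differed by more than sampling noise (chi-square over degrees of freedom at the members 2.06 to 6.68).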

Additional observations from a re-analysis of the deposited data

How the results depend on the processing

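The number of members called higher in aged was 0 under DESeq2, RLE factors, library totals, no filter, thinned libraries and the limits of 3000 bp (4 members) and 500 bp from the TSS (83 members). It was 7 with the replicate block and 0 to 10 when single libraries were left out, the 10 coming without young replicate 2. The number called lower was 0 under each of these, and 0 whichever library was left out. With a limit of 1500 bp (777 promoters) 2 were higher and 1 lower. The share of counts at broad promoters remained higher in aged by 0.0197 to 0.0498 percentage points when single libraries were left out, and the log2 ratio to narrower promoters by 0.03 to 0.08, with exact permutation p of 0.1 to 0.5. With the replicate block both kept their differences (0.0317 percentage points and 0.05; exact sign-flip p = 0.5). The median log2 fold change of the members was 0.09 with the replicate block, 0.07 with library totals, 0.06 to 0.14 without single libraries and 0.17 for the 4 members of 3000 bp or more.

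Of 66 named members, 15 changed sign under at least 1 alternative and 10 gained a call. Over the fits that left out 1 library each, Fzd8 ran from -0.21 to 0.01 (0.0073 without aged replicate 2), Kif26b from -0.23 to 0.012 and Foxl2 from -0.26 to 0.073, both highest without young replicate 2. Nrp1 ran from -0.15 to 0.013 (above 0 without young replicate 2 and, at 0.012, without aged replicate 2) and Hnrnpa2b1 from -0.063 to 0.0042 (without young replicate 1). Ascl2 ran from -0.037 to 0.092, below 0 without aged replicate 2 or 3 or young replicate 3, and Jun from -0.034 (without young replicate 2) to 0.085. Gas1 ran from -0.23 to 0.084 (above 0 without young replicate 2 or aged replicate 1), Sox9 from -0.093 to 0.028, Wls from -0.0072 to 0.13 and Insm2 from -0.12 to 0.22. Members near 0 turned most often: Leng9 ran from -0.055 to 0.027, Akt1s1 from -0.031 to 0.070, Fam46a from -0.048 to 0.040 and Gm16253 from -0.045 to 0.077. Thinned libraries gave 0.039 for Leng9, 0.014 for Gm16253, -0.0032 for Akt1s1 and -0.0087 for Wls, and library totals -0.0033 for Akt1s1 and -0.0057 for Fam46a. Of all these values, 740 kept direction and side of the threshold, 17 gained a call and 35 reversed. The causes were not tested. Young replicate 1 had the fewest counts, and its part in the precision was not tested.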
